A study of Mus musculus with 8 samples.

Results

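Intestinal crypts of the library titled VEMD3 were set against crypts of the library titled VEMD2, both from mice that had lost Setdb1 in the intestinal epithelium. Genes were chosen when they averaged 1 FPKM or more over the 6 crypt libraries, where FPKM is fragments scaled for gene length and library size. This held for 10862 of 16958 genes with values. The comparison uses 2 of the 8 samples of the series, and the other crypt libraries, wild type (WT) included, enter it only through that mean. Genes on either side of the limit had a mean of 1 FPKM and of 0.998 FPKM.

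The series holds RNA sequencing of 6 crypt libraries and of 2 intestinal stem cell libraries, and each of its 8 groups is 1 library. The VEMD2 and VEMD3 mice were C57BL/6, 8 weeks old, with the genotype setdb1 iIEC-KO, in which a tamoxifen-activated Cre recombinase is driven by the Villin promoter, active in intestinal epithelium and not in the leukocytes or stroma around it. Tamoxifen was given once by gavage at 800 mg/kg, also to the WT crypt mouse, a setdb1 fl/fl littermate. VEMD4, VEMD6 and VEMD8, which count in that mean and whose values are given side by side, carry the same genotype and dose. The labels do not spell out VEMD, and its number is used only as a name. With 1 library a group there is no replicate, no test and no error, so every difference below is between 2 libraries and is described by its size. The deposited values carry no read counts, and the depth behind them is unknown.

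SETDB1 is a methyltransferase that marks lysine residues of histone H3 and holds repeats and germline genes silent. Crypts house the stem cells of the gut lining at their base beside Paneth cells, which store antimicrobial peptides, and give rise to absorptive enterocytes and to the secretory goblet and enteroendocrine cells. After injury, crypt epithelium can take on a program of genes otherwise seen in fetal gut, while interferons switch on antiviral genes and p53 switches on genes of cell cycle arrest and death.

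The 2 libraries were close for most genes. The log2 ratio of VEMD3 to VEMD2, taken after 1 FPKM was added to both values, had a median of 0.03 and lay between -0.47 and 0.56 for all but the outer 5% of genes at each end. It was within 0.5 of 0 for 9734 genes, or 89.6%, and above 0 for 6134 genes, or 56.5%. That share was 70.7% when VEMD3 was rescaled to the same FPKM sum as VEMD2, and by construction 50% when rescaled to the median gene. All counts past 2-fold below are of values with 1 FPKM added, which for low genes is stricter than the plain ratio. At least 2-fold higher in VEMD3 were 156 genes, 1.44% of those retained, and at least 2-fold lower were 121 genes, 1.11%. The counts of each list below are to be read against these shares and the 56.5% above 0. Of the higher genes 34 were under 1 FPKM in VEMD2 and had passed the filter through other libraries, 2 of them listed at 0 there. Of the lower genes 11 were under 1 FPKM in VEMD3. Among the most abundant genes, those from 100 FPKM upwards, 2.98% were lower, against 0.865% of genes between 1 and 5 FPKM.

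**Figure D1:**
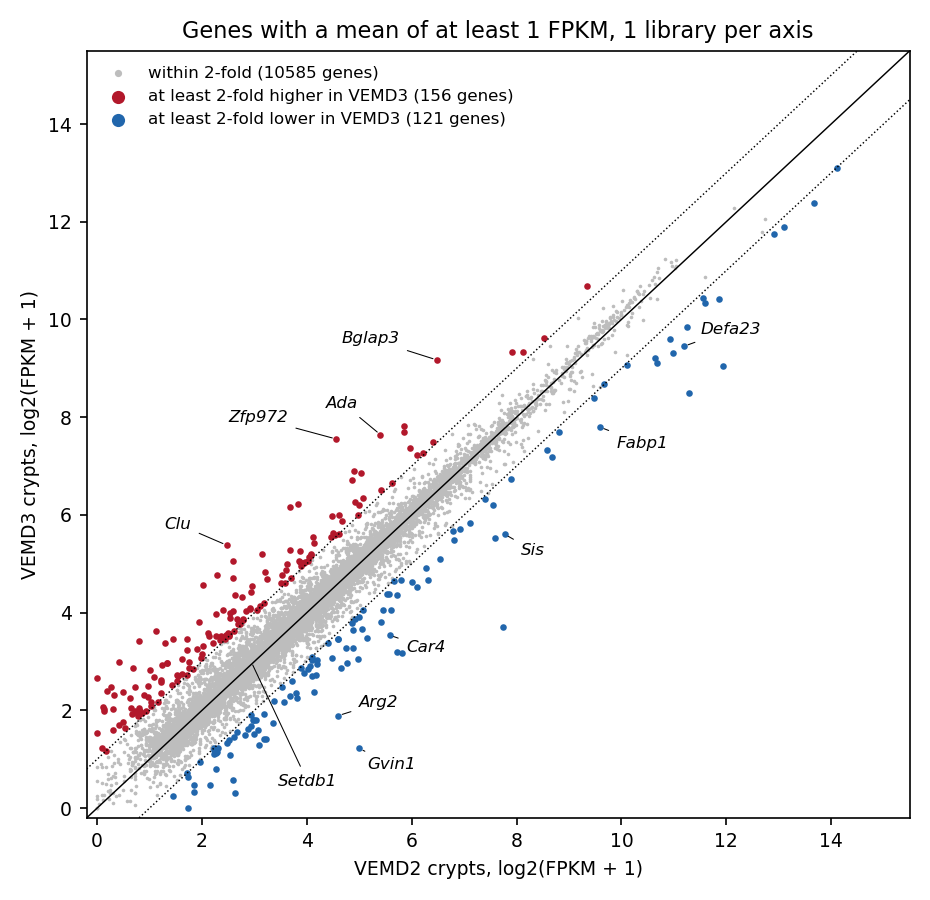
Level of each of the 10862 retained genes in VEMD2 (x axis) and VEMD3 (y axis), both as log2(FPKM + 1), 1 library per axis; the solid line marks equal values and the dotted lines a 2-fold difference. The 156 red genes lie above the upper dotted line, the 121 blue genes below the lower one, and Setdb1 lies near the solid line.

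Setdb1 itself was at 6.64 FPKM in VEMD2 and 7.03 FPKM in VEMD3, against 9.42 FPKM in WT. The value covers the whole gene and the labels do not say which exons were deleted, so it does not measure the intact transcript. Of the 24 retained partners of SETDB1 and other genes of H3K9 methylation none differed by 2-fold. The epithelial marker Epcam was at 733 FPKM in VEMD2 and 785 FPKM in VEMD3. Of 26 markers of stroma, vessel and muscle 3 passed the filter, all 26 together summed to 11.8 and 13.5 FPKM, and the collagen gene Col1a1 was at 0.03 and 0.02 FPKM. Of 16 retained leukocyte markers none differed by 2-fold and 14 were above 0 on the log2 ratio; their list summed to 123 FPKM in VEMD2 and 157 FPKM in VEMD3. In bulk RNA, fewer cells of a type and less RNA per cell cannot be told apart.

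Genes of fetal and regenerative epithelium were higher in VEMD3 more often than any other list described here. Of the 26 such genes present 20 passed the filter, and 10 of these were at least 2-fold higher and none lower, against 1.44% and 1.11% of all retained genes. Their median log2 ratio was 0.95, and 19 of 20 lay above 0. Several were under 1 FPKM in VEMD2 and passed through other libraries, among them Anxa1 and Anxa10.

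Clu, which encodes the secreted chaperone clusterin and marks revival stem cells of injured crypts, was at 4.55 FPKM in VEMD2 and 40.6 FPKM in VEMD3, with 77.2 in VEMD4, 14.9 in VEMD6, 9.47 in VEMD8 and 0.38 in WT. The VEMD3 value was above every library except VEMD4, and its log2 ratio to VEMD2 of 2.91 was the second highest of all named genes. S100a6, a calcium-binding protein, was at 56.5 FPKM in VEMD2 and 206 FPKM in VEMD3, with 450.2 in VEMD4, 52.6 in VEMD6, 106 in VEMD8 and 28.5 in WT. It too was highest in VEMD4 and next in VEMD3, with a log2 ratio of 1.85. Ly6a, which encodes the surface protein Sca-1, was at 368 FPKM in VEMD2 and 790 FPKM in VEMD3, a log2 ratio of 1.10, and at 37.3 FPKM in WT.

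The annexins Anxa1, Anxa3 and Anxa10, which bind membranes in the presence of calcium, had log2 ratios of 1.85, 1.69 and 1.13. Anxa3 was at 3.83 FPKM in VEMD2 and 14.6 FPKM in VEMD3. The alarmin Il33 was at 8.26 and 27.5 FPKM, and Il1rn, the antagonist of the interleukin-1 receptor, was at 2.30 and 9.99 FPKM. Sprr1a, a small proline-rich protein of cornified epithelium, was at 1.36 and 6.56 FPKM, and the lysosomal protease Ctsl was at 4.67 and 11.0 FPKM. The exception in direction was Ly6d, with a log2 ratio of -0.52.

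Other genes at least 2-fold higher, which belong to no count of that list and were picked after their values were seen, included Krt23, a keratin, at 3.90 FPKM in VEMD2 and 26.2 FPKM in VEMD3. Plet1, a surface protein, was at 0.61 and 6.31 FPKM. The tight junction gene Cldn4 was at 24.6 and 57.6 FPKM. Plaur, the receptor of urokinase, was at 5.75 and 18.9 FPKM.

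The promoters of Sprr1a and Cldn4 are shown because each holds the AP-1 motif TGANTCA, searched on both strands, more than once. They run from 250 bases before the RefSeq transcription start to 50 bases after it on GRCm38.p6, are written 5′ to 3′ along the gene, and carry the matches in capitals.
Sprr1a promoter, chr3:92485832-92486131, minus strand: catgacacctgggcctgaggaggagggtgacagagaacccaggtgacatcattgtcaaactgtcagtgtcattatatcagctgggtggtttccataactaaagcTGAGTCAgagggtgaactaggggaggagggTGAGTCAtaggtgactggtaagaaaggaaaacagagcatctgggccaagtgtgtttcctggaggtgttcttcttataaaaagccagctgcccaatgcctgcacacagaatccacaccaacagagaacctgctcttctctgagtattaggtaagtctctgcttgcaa
Cldn4 promoter, chr5:134946885-134947184, minus strand: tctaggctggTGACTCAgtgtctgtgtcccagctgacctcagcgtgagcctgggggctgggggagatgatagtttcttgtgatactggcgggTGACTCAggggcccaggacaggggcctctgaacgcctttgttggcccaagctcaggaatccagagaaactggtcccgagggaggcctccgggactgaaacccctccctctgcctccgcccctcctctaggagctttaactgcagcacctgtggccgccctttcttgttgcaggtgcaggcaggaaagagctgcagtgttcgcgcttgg
The matches begin 146 and 116 bases before the start of Sprr1a and 240 and 158 bases before that of Cldn4. Among promoter windows of higher genes 20 of 143 held the motif, or 14.0%, against 5.22% of all 11235 windows of retained genes and 5.61% of the 107 windows of lower genes. A match of letters is a description and not evidence of binding. Of the transcription factor's own genes, Fosl1 was at 0.54 FPKM in VEMD2 and 3.78 FPKM in VEMD3, and had passed the filter through VEMD3 and VEMD4. Junb was at 35.3 and 66.5 FPKM, Jun at 8.96 and 13.7 FPKM, and Fos at 30.7 and 36.4 FPKM, a log2 ratio of 0.24. Of the 21 retained immediate early genes only Fosl1 was 2-fold higher, and 19 lay above 0 with a median log2 ratio of 0.34.

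Interferon-stimulated genes were higher in VEMD3 as a group, whereas several genes that respond chiefly to interferon-gamma were lower. All 40 listed interferon-stimulated genes passed the filter, 9 were at least 2-fold higher, none was lower, 36 lay above 0 and the median log2 ratio was 0.61. The number of higher genes was 7 with rescaling to the median gene and 12 with VEMD3 rescaled to the same FPKM sum. Isg15, a ubiquitin-like modifier, was at 61.3 FPKM in VEMD2 and 163 FPKM in VEMD3, with 531 in VEMD4, 146 in VEMD6, 138 in VEMD8 and 72.0 in WT. VEMD2 was thus the lowest library and VEMD3 the second highest. The log2 ratio was 1.40.

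Mx1, of a family of antiviral GTPases, was at 6.66 FPKM in VEMD2 and 20.6 FPKM in VEMD3, the highest log2 ratio of the list at 1.49. In C57BL/6 it makes no functional protein, and RefSeq has it as a transcribed pseudogene. Oas2 and Oas1a, synthases of the 2-5A signal for RNA decay, were at 4.79 and 13.8 FPKM and at 41.5 and 89.7 FPKM. Rtp4 was at 16.7 and 41.8 FPKM, Bst2, the tetherin that holds back budding virus, at 73.7 and 153 FPKM, and Ifit3b, which encodes a protein that binds viral RNA complexes, at 1.87 and 5.09 FPKM. The factor gene Irf7 had a log2 ratio of 0.89. No gene of the 13 retained interferons and receptors differed by 2-fold, and Ifng was at 0.15 and 0.10 FPKM, below the filter.

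The promoters of Isg15 and Ifit3b are shown because each holds 3 matches to the interferon-stimulated response element GAAANNGAA, in capitals, on the same build; in Ifit3b they read on the other strand.
Isg15 promoter, chr4:156200769-156201068, minus strand: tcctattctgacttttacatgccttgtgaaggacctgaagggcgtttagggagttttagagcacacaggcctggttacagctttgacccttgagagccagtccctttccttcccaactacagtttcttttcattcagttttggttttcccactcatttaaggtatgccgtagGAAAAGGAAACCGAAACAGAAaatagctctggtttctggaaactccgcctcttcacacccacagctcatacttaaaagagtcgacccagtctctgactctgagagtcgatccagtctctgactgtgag
Ifit3b promoter, chr19:34607707-34608006, plus strand: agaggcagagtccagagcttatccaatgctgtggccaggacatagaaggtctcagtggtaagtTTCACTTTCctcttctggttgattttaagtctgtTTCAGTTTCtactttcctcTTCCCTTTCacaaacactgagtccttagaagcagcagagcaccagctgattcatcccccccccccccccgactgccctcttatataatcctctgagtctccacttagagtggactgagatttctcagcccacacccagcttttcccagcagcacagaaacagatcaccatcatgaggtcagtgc
The matches overlap in Isg15, where they begin 78, 72 and 66 bases before the start, and lie apart in Ifit3b, at 187, 153 and 134 bases. The Ifit3b window lies inside the annotated gene, which begins at base 34607530, so its matches are upstream only of the start used here. The response element stood in 23 of 143 windows of higher genes, or 16.1%, in 14.0% of windows of lower genes and in 7.12% of all windows. It was thus about as common in windows of lower genes as in windows of higher genes.

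Of 14 retained GTPase genes induced by interferon-gamma, 3 were at least 2-fold higher and 3 at least 2-fold lower, with a median log2 ratio of -0.48. The higher members were Gbp9, Gbp4 and Gbp10, guanylate-binding proteins with log2 ratios of 1.19, 1.10 and 1.06. The lower members were Tgtp2, Tgtp1 and Iigp1, GTPases that attack the vacuoles of parasites, at -1.60, -1.58 and -1.14. Gbp4, Gbp9 and Gbp10 are near copies of each other, as are Tgtp1 and Tgtp2, so reads could have been split between them. Iigp1 was at 45.2 FPKM in VEMD2 and 19.9 FPKM in VEMD3, with 16.4 in VEMD4, 16.5 in VEMD6, 3.46 in VEMD8 and 30.3 in WT. It was highest in VEMD2, and the other knockout libraries were all below WT.

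Gvin1, a very large GTPase also induced by interferon, had the lowest log2 ratio of all named genes at -3.78. It was at 31.0 FPKM in VEMD2 and 1.33 FPKM in VEMD3, with 0.8 in VEMD4, 12.2 in VEMD6, 7.22 in VEMD8 and 70.6 in WT. VEMD3 and VEMD4 stood far below the other libraries. All 8 retained MHC class II genes, which present antigen to helper T cells, were below 0 on the log2 ratio, with a median of -0.55 and none past 2-fold. Their regulator Ciita was at 15.7 FPKM in VEMD2 and 8.72 FPKM in VEMD3, and H2-Aa was at 470 and 315 FPKM. Socs1, an inhibitor of interferon signalling, was at 16.4 and 9.53 FPKM and Irf1 at 179 and 123 FPKM, both short of 2-fold.

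**Figure D2:**
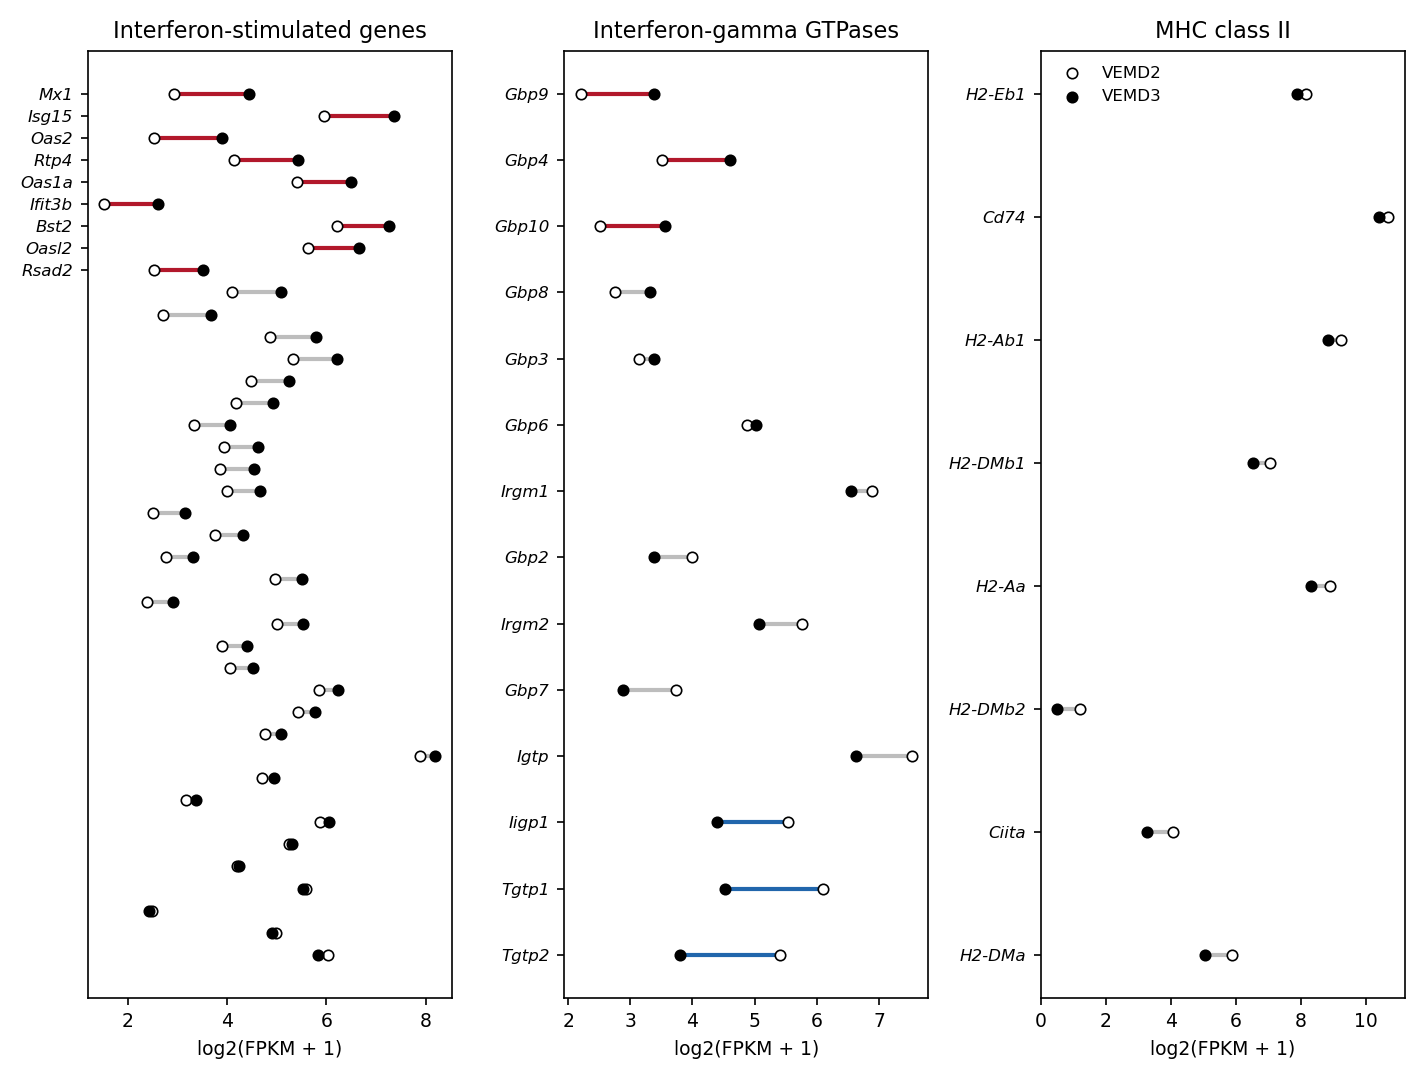
Level in VEMD2 (open circles) and VEMD3 (filled circles) of all retained members of 3 lists as log2(FPKM + 1), 1 library each, with names in the first panel only for the 9 members past 2-fold; red lines mark members at least 2-fold higher and blue lines members at least 2-fold lower in VEMD3. Filled circles lie to the right for 36 of 40 interferon-stimulated genes and to the left for all 8 MHC class II genes, and the interferon-gamma GTPases divide into both directions.

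Targets of p53 were mostly somewhat higher in VEMD3, few of them by 2-fold. Across all 3 lists of p53 targets 50 genes passed the filter, 3 were at least 2-fold higher, none lower, 44 lay above 0 and the median log2 ratio was 0.41. All 3 higher genes stood among the 19 targets of cell cycle arrest, where 1.44% of all retained genes were higher. With rescaling to the median gene 2 of the 19 were higher, and 1 target of cell death was lower. Phlda3, which restrains the kinase AKT, was at 21.6 FPKM in VEMD2 and 48.2 FPKM in VEMD3, with 33.8 in VEMD4, 0.36 in VEMD6, 0.12 in VEMD8 and 0.27 in WT. It was high in VEMD2, VEMD3 and VEMD4 only, and highest in VEMD3.

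Trp53inp1, a stress-induced nuclear protein, was at 16.0 and 35.1 FPKM in VEMD2 and VEMD3, and the kinase gene Plk2 at 11.9 and 25.1 FPKM. The cell cycle inhibitor Cdkn1a was at 201 and 311 FPKM, Mdm2, which targets p53 for degradation, at 37.4 and 62.4 FPKM, and the death effector Bax at 134 and 202 FPKM, each under 2-fold. Steap3 went the other way at 7.98 and 3.55 FPKM, a log2 ratio of -0.98. Trp53 itself was at 71.5 and 85.8 FPKM. Genes of DNA repair had a median log2 ratio of -0.01 and none of the 22 differed by 2-fold.

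Among stress genes of other kinds the heat shock list was higher as a group, and the other lists here gave 1 member each past 2-fold. All 15 retained heat shock genes lay above 0, with a median log2 ratio of 0.35. Of these, 3 were 2-fold higher, against 1.44% of all retained genes. They were Hspa1b, Hspa1a and Hsph1, which encode chaperones of unfolded proteins, with log2 ratios of 1.37, 1.26 and 1.08. Hspa1a and Hspa1b are near copies. Hmox1, which breaks down heme, was at 2.37 FPKM in VEMD2 and 6.99 FPKM in VEMD3, and it alone of 22 targets of the oxidative stress factor NRF2 was 2-fold higher. Of 21 retained genes of the integrated stress response 16 lay above 0, with a median log2 ratio of 0.19, and Stc2 alone was 2-fold higher, at 0.4 and 2.41 FPKM. The chaperones of the endoplasmic reticulum were near equal with a median log2 ratio of 0.15, and Derl3 alone of 22 was 2-fold higher.

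Genes of absorption were lower in VEMD3. Of 19 brush border hydrolases, the enzymes that finish digestion at the cell surface, 5 were at least 2-fold lower and none higher, with a median log2 ratio of -0.82. Of 26 solute carriers of enterocytes 8 were lower and none higher, with a median of -0.70. Of 25 genes of fat absorption 2 were lower and none higher, with a median of -0.39.

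Sis, the sucrase-isomaltase of sugar digestion, was at 217 FPKM in VEMD2 and 47.7 FPKM in VEMD3, with 70.8 in VEMD4, 164 in VEMD6, 185 in VEMD8 and 170 in WT. VEMD2 was the highest and VEMD3 the lowest library, with a log2 ratio of -2.17. Fabp1, which carries fatty acids in the cytosol, was at 771 FPKM in VEMD2 and 221 FPKM in VEMD3, with 433 in VEMD4, 2825 in VEMD6, 1449 in VEMD8 and 1236 in WT. VEMD3 was again the lowest library, and the log2 ratio was -1.80. Lct, the lactase, was at 24.0 FPKM in VEMD2 and 6.25 FPKM in VEMD3, and the phosphodiesterase Enpp7, which digests sphingomyelin, at 42.8 and 15.6 FPKM.

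Among transporters, the glucose and fructose carriers Slc2a2 and Slc2a5 were at 28.4 and 8.67 FPKM and at 17.2 and 5.65 FPKM. The sodium-glucose transporter Slc5a1 was at 237 and 105 FPKM, the inositol transporter Slc5a11 at 7.51 and 1.45 FPKM, and the amino acid carrier Slc7a8 at 46.3 and 19.8 FPKM. Khk, which phosphorylates fructose, was at 47.5 and 15.7 FPKM. Car4, a membrane carbonic anhydrase, was at 46.8 and 10.6 FPKM. Fabp6, the bile acid binder of the ileum, was at 51.7 FPKM in VEMD2 and 8.19 FPKM in VEMD3, and at 2.27 FPKM in WT, 5.54 in VEMD4, 0.38 in VEMD8 and listed at 0 in VEMD6. VEMD2 thus stood apart from every other library for this gene of one gut segment, and whether the crypts came from the same stretch of gut was not tested. Of 19 retained genes of gut regions 2 were at least 2-fold lower, Fabp6 and Slc51a, none was higher, 7 lay above 0 and the median log2 ratio was -0.10. The bile salt genes Slc51a and Slc10a2, an exporter and an importer, were at 52.0 and 19.6 FPKM and at 3.10 and 5.27 FPKM.

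Apolipoproteins went against the group: Apoa4 was at 574 FPKM in VEMD2 and 1039.9 FPKM in VEMD3, and Apoc3 at 54.3 and 108 FPKM, both short of 2-fold. Ada, the adenosine deaminase of the upper villus, was at 41.4 FPKM in VEMD2 and 199 FPKM in VEMD3, with 622 in VEMD4, 700.1 in VEMD6, 213 in VEMD8 and 291 in WT. It was the one enterocyte gene at least 2-fold higher, at a log2 ratio of 2.24, and VEMD2 rather than VEMD3 was the library that lay below the rest. Of 23 retained enterocyte markers 8 were lower.

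The promoters of Sis and Fabp1 are shown because both hold GTTAAT, a site of the hepatocyte nuclear factor HNF1, in capitals, on the same build; in Sis it reads on the other strand.
Sis promoter, chr3:72967814-72968113, minus strand: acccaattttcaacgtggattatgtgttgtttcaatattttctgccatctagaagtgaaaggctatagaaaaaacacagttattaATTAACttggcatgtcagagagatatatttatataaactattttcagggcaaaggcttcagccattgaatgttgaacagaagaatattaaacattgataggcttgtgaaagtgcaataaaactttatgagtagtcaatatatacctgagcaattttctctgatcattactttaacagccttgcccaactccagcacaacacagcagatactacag
Fabp1 promoter, chr6:71199629-71199928, plus strand: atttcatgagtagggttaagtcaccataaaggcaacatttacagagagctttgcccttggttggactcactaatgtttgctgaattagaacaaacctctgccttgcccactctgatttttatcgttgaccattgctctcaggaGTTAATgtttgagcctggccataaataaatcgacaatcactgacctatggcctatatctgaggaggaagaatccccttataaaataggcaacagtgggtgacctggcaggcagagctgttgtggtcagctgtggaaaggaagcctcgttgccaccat
The match begins 165 bases before the start of Sis and 107 bases before that of Fabp1. The site stood in 16 of 107 windows of lower genes, or 15.0%, in 6.29% of windows of higher genes and in 4.49% of all windows. The TATA box TATAAA was as common in both directions, with 18.9% of windows of higher genes and 18.7% of lower genes, against 7.50% of all. The motifs CAAAGTCCA of HNF4, TTTATGG of CDX, GAANNTTC of the heat shock factors and TNGCGTG of the aryl hydrocarbon receptor stood in 0.935%, 4.67%, 7.48% and 4.67% of windows of lower genes, in 0%, 1.40%, 9.79% and 7.69% of those of higher genes, and in 0.490%, 1.73%, 5.79% and 7.97% of all. The p53 pattern, CATG repeated after a gap of 6 bases, stood in 1 window of a higher gene, in none of a lower gene and in 0.338% of all. In all 9 motifs were searched, some overlap each other in a window, and windows were found for 115 of the 156 higher and 89 of the 121 lower genes. A gene with several starts counts once per window, and near copies such as the defensins or Apol9a and Apol9b are counted separately, so windows are not independent.

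Drug oxidases and conjugating enzymes, which clear foreign compounds, followed the absorptive genes. Of 29 retained 8 were at least 2-fold lower and 1 higher, with a median log2 ratio of -0.61. The cytochrome P450 genes Cyp3a25 and Cyp2b10 were at 8.08 and 1.67 FPKM and at 15.3 and 6.22 FPKM, the carboxylesterase Ces2a at 21.3 and 7.35 FPKM, and the glucuronosyltransferase Ugt1a1 at 16.1 and 5.50 FPKM. The exception was Cyp1a1, the P450 induced through the aryl hydrocarbon receptor, at 1.19 FPKM in VEMD2 and 11.3 FPKM in VEMD3, with 5.80 in VEMD4, 95.5 in VEMD6, 21.6 in VEMD8 and 0.93 in WT. VEMD2 and WT were both near 1 FPKM and the other knockout libraries were all above them. Arg2, the mitochondrial arginase, was at 23.2 FPKM in VEMD2 and 2.71 FPKM in VEMD3, with 2.82 in VEMD4, 98.0 in VEMD6, 43.5 in VEMD8 and 131 in WT, with VEMD3 and VEMD4 alike at the bottom.

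**Figure D3:**
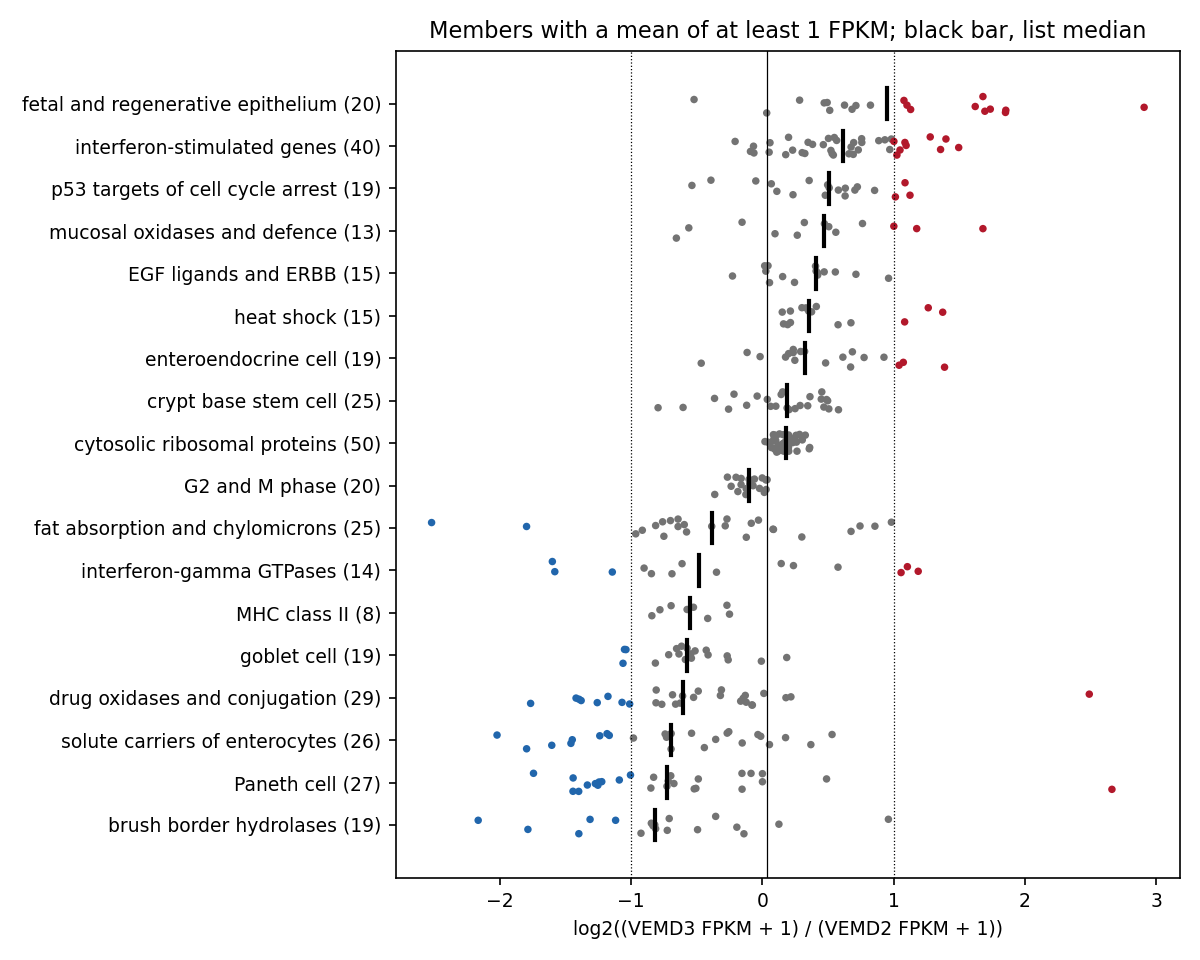
The log2 ratio of VEMD3 to VEMD2 of each retained member of 18 lists, 1 point a gene, with the list's median as a black bar, red points at least 2-fold higher and blue points at least 2-fold lower; the thin line marks the median of all genes at 0.03. Medians run from 0.95 for fetal and regenerative epithelium to -0.82 for brush border hydrolases, and ribosomal proteins lie in a narrow band.

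Paneth cell genes were lower in VEMD3. Of 27 retained markers 11 were at least 2-fold lower and 1 higher, with a median log2 ratio of -0.73. Their summed level was 53090.2 FPKM in VEMD2 and 25535 FPKM in VEMD3, or 9.37% and 4.78% of all FPKM. Defa24, an alpha-defensin, was at 8843 FPKM in VEMD2 and 3785 FPKM in VEMD3, with 1259 in VEMD4, 586 in VEMD6, 596 in VEMD8 and 6600 in WT. VEMD2 was the highest library and VEMD3 stood between WT and the other knockout libraries.

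Of 25 retained defensin genes named Defa 13 were at least 2-fold lower. Defa3 was listed at 0 in VEMD2, WT, VEMD4 and VEMD8 and at 5.33 FPKM in VEMD3, so no fold is given. These genes are near copies and their single values are uncertain. Among the lower genes were also 6 that the annotation does not name, of which the lowest by ratio were 13219, at 213 and 12.1 FPKM, and 13222, at 3907 and 527 FPKM. Paneth genes other than defensins varied more among themselves. Lyz1, the Paneth lysozyme, was at 6844 and 4289 FPKM, a log2 ratio of -0.67, Ang4 at 1099 and 618 FPKM, and the protease gene Mmp7 had a log2 ratio of -0.16. Mptx2, a mucosal pentraxin, was at 1953 and 774 FPKM. Sox9, a factor of Paneth and progenitor cells, was the one member above 0 besides Defa3, at 0.49.

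Goblet cell genes were lower by less, with a median log2 ratio of -0.57 over 19 genes. At least 2-fold lower were Ccl6, Tpsg1 and Zg16, at -1.06, -1.05 and -1.04, and with VEMD3 rescaled to the same FPKM sum none of the 19 was past 2-fold. Muc2, the main gut mucin, was at 226 FPKM in VEMD2 and 150 FPKM in VEMD3. Enteroendocrine genes lay on the other side: of 19, 16 were above 0, 3 were at least 2-fold higher and none lower, with a median of 0.32. Ghrl, the ghrelin hormone, was at 11.3 FPKM in VEMD2 and 31.1 FPKM in VEMD3, with 10.0 in VEMD4, 8.55 in VEMD6, 3.77 in VEMD8 and 17.8 in WT, highest in VEMD3. Nts and Sst, for neurotensin and somatostatin, had log2 ratios of 1.07 and 1.04, and the granule protein Chga was at 46.3 and 74.3 FPKM. Of the 10 tuft cell markers present 3 passed the filter and none was past 2-fold; Dclk1 was at 1.15 and 0.36 FPKM, below it.

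Genes of crypt base stem cells and of the cell cycle differed little. None of 25 retained crypt base stem cell genes was past 2-fold and their median log2 ratio was 0.19. Lgr5, the stem cell receptor, was at 1.60 and 0.71 FPKM, past 2-fold as a plain ratio but at a log2 ratio of -0.60 with 1 FPKM added, and Olfm4 at 480 and 276 FPKM. Among 40 genes of the cell cycle phases none was past 2-fold, with a median of -0.08. Of the 20 genes of G1 and S phase 10 lay above 0, and of the 20 of G2 and M phase 4 did, with a median of -0.10. The latter count was 1 with rescaling to the median gene and 8 with rescaling to the same FPKM sum. Wnt targets had a median of 0.36 with Sp5 alone of 15 at least 2-fold higher, at 4.13 and 10.4 FPKM, so that Lgr5 and Sp5, both Wnt targets, lay on opposite sides of 0. The 13 YAP targets had a median of 0.30 and the 15 ligands and receptors of the EGF family one of 0.40, none past 2-fold. Btc, for betacellulin, was at 4.78 and 10.3 FPKM, a log2 ratio of 0.96, and was past 2-fold with VEMD3 rescaled to the same FPKM sum. All 50 ribosomal protein genes lay above 0, between 0.02 and 0.36, and 49 did when the libraries were rescaled to the median gene.

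Mucosal defence genes were mostly higher in VEMD3, and the cytokine and gasdermin lists gave members past 2-fold in both directions. Of 13 retained oxidases and defence genes 10 lay above 0, with a median log2 ratio of 0.47. At least 2-fold higher were 3, Sprr1a, Duoxa2 and Nox1, against 1.44% of all retained genes. Nox1 was at the limit, and the count was 2 with rescaling to the median gene. Duoxa2, which matures a hydrogen peroxide-forming oxidase, was at 13.6 and 32.0 FPKM. Of 17 cytokine genes Il1rn, Il33 and Cxcl16 were higher and Ccl6 was lower. Retnlb, a goblet cell protein directed at worms, was at 0.09 and 3.10 FPKM. Of 18 genes of necroptosis none was past 2-fold: Ripk3, the kinase that starts it, was at 61.7 and 54.1 FPKM and Mlkl, its pore former, at 28.0 and 32.1 FPKM. Among 20 genes of gasdermins and inflammasomes Casp4, which senses bacterial lipid, was higher at 13.9 and 30.0 FPKM, and Gsdmc4 and Gsdmc2 were lower. Gsdmc4 was at 5.19 FPKM in VEMD2 and 0.23 FPKM in VEMD3, with 0.06 in both VEMD4 and VEMD6, 82.5 in WT and a listing at 0 in VEMD8. It has near copies beside it.

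The highest log2 ratio of all, 2.99, belonged to Zfp972, a zinc finger gene. It was at 22.6 FPKM in VEMD2 and 187 FPKM in VEMD3, with 150 in VEMD4, 320.0 in VEMD6, 524 in VEMD8 and 11.2 in WT. The value in VEMD2 was nearer to WT than to any later-numbered library. Bglap3, of the osteocalcin family, was at 88.3 FPKM in VEMD2 and 576 FPKM in VEMD3, with 796 in VEMD4, 796 in VEMD6, 960 in VEMD8 and 85.7 in WT. WT and VEMD2 were near equal and the other libraries stood clear above them. Gulo, the enzyme of the last step of vitamin C synthesis, showed the same division at 3.03 FPKM in VEMD2 and 22.7 FPKM in VEMD3, with 57.2 in VEMD4, 152 in VEMD6, 206 in VEMD8 and 2.20 in WT.

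Of the 24 germline and early embryo genes present 7 passed the filter and 3 of these were at least 2-fold higher, against 1.44% of all retained genes. They were Khdc1c at 0.73 and 9.74 FPKM, Tex19.1, which restrains mobile elements in germ cells, at 0.2 and 4.54 FPKM, and Khdc1a at 4.99 and 25.3 FPKM. Khdc1c and Tex19.1 were under 1 FPKM in VEMD2 and WT and passed through the other knockout libraries, so the filter itself favours such a count. Khdc1a and Khdc1c are near copies. Apobec3, a cytidine deaminase that acts on retroviruses, was at 13.2 FPKM in VEMD2 and 73.6 FPKM in VEMD3, with 73.8 in VEMD4, 22.7 in VEMD6, 35.3 in VEMD8 and 19.3 in WT. VEMD2 was the lowest library, and VEMD3 and VEMD4 were near equal. Tdpoz5 and Tdpoz7 carried identical values in all 6 libraries, 1.52 FPKM in VEMD2 and 6.81 FPKM in VEMD3. Both stand among the 156 higher genes, although they may be 1 measurement.

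Near the lower end of all ratios stood Tuba1a, a tubulin gene. It was at 55.6 FPKM in VEMD2 and 7.96 FPKM in VEMD3, with 54.4 in VEMD4, 37.4 in VEMD6, 38.4 in VEMD8 and 40.3 in WT, so that VEMD3 alone was low. Tuba1a has near copies among the tubulins. Tgfbi, an extracellular matrix protein, was at 30.3 and 7.23 FPKM, the myelin protein gene Pmp22 at 26.1 and 6.82 FPKM, and the glutathione transferase Gstm3 at 78.8 and 24.5 FPKM. Apol10a, of the apolipoprotein L family, was at 191 and 45.4 FPKM.

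**Figure D4:**
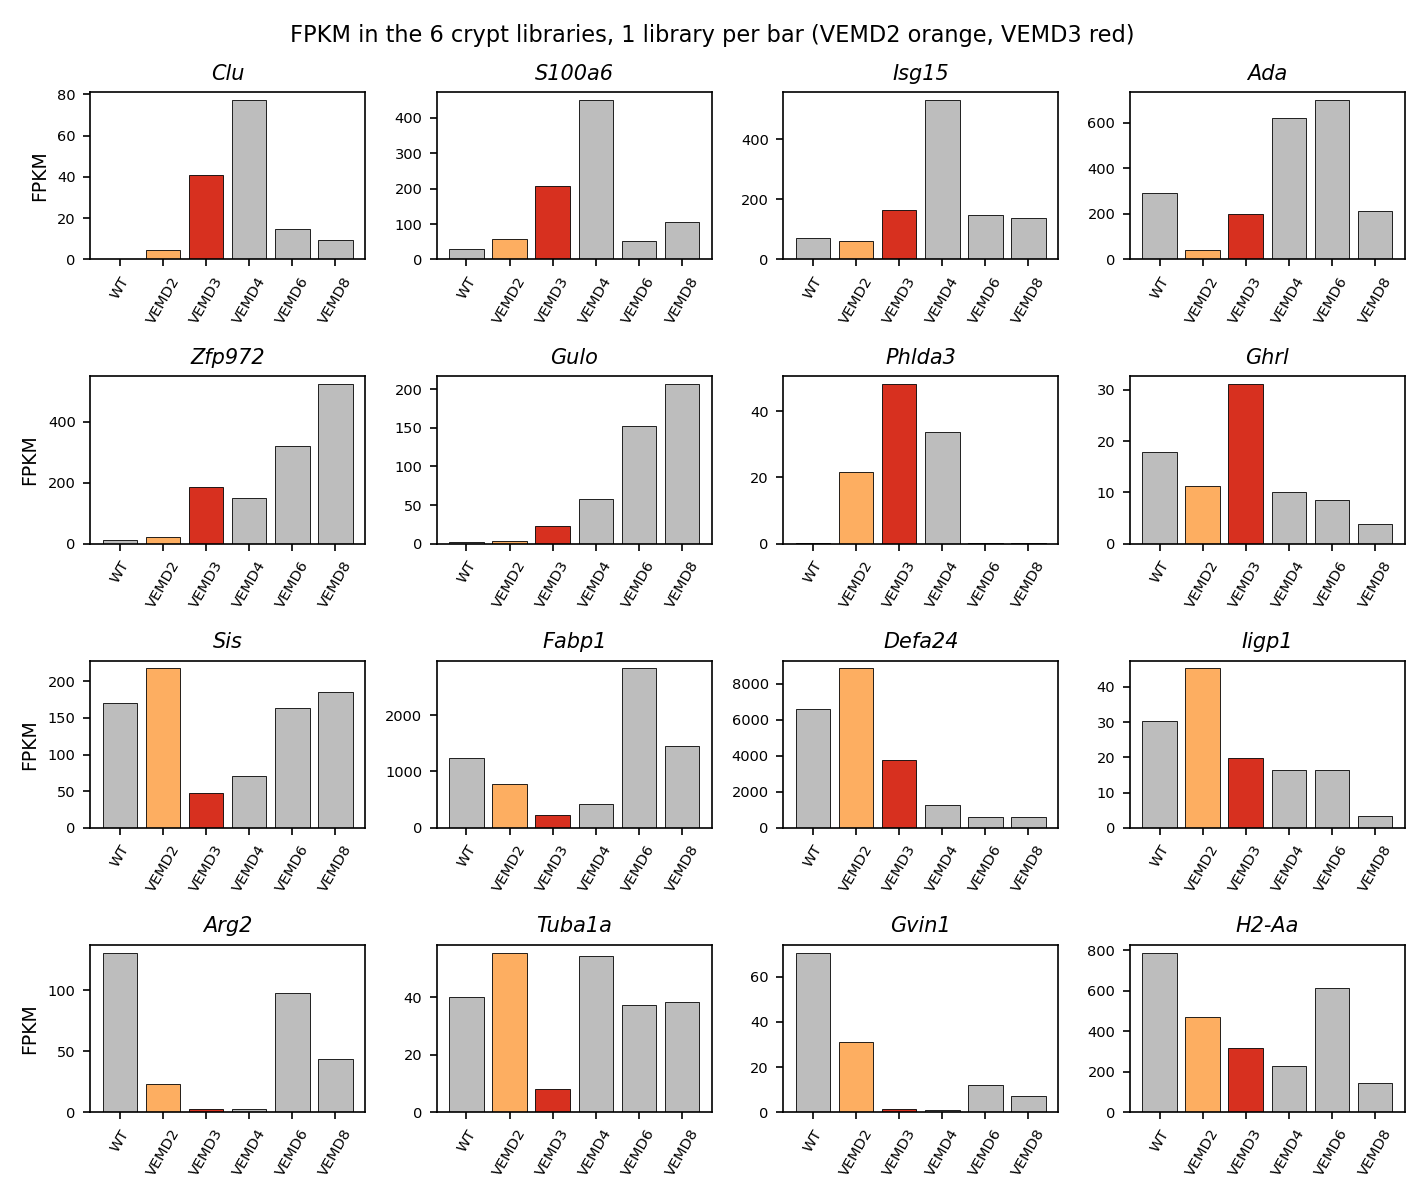
FPKM of 16 named genes in the 6 crypt libraries, 1 bar a library on a linear axis that starts at 0, with VEMD2 in orange and VEMD3 in red. Zfp972 and Gulo are highest in VEMD8, Phlda3 and Ghrl are highest in VEMD3, Defa24 is highest in VEMD2, and Tuba1a is low in VEMD3 alone.

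Some of the 277 genes past 2-fold lay near each other in the RefSeq annotation of GRCm38.p6. Runs of at least 3 such genes, no more than 200000 bases from one to the next, were found at 12 places. Other retained genes could lie between them, and the number of runs to expect without clustering was not tested. The longest was the defensin cluster at chr8:21055040-21735471, with 13 genes lower and Defa3 higher among 24 retained genes. At chr15:74813434-75048920 the Ly6 family genes Gml, Gml2, Ly6m, Ly6a and Ly6c1 were all higher, 5 of 6 retained. Gml and Gml2 were at 0.95 and 0.45 FPKM in VEMD2 and had passed the filter through other libraries. At chr15:77403789-77736382 the apolipoprotein L genes were divided, with Apol9a and Apol9b higher and Apol10a, Apol10b and Apol11b lower. At chr15:79823898-79971143 Apobec3 was higher together with Cbx6 and Cbx7, which encode chromobox proteins of Polycomb complexes, all 3 of the genes retained there. Cbx6 was at 0.24 FPKM in VEMD2 and 3.05 FPKM in VEMD3, and its mean of 1.11 FPKM passed the filter only through VEMD3. The highest genes Clu and Gulo also adjoin each other, at chr14:65968483-65981548 and chr14:65986786-66009254. Members of the defensin, Ly6 and apolipoprotein L families share sequence, so reads may have been divided between neighbours.

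The same genes were read in VEMD4 against WT, which share no library with this comparison but do count in the mean that set the filter. With the filter set on VEMD2 and VEMD3 alone, 84.1% of higher genes were also higher there and 84.2% of lower genes also lower. Of the 156 higher genes 133, or 85.3%, were at least 2-fold higher in VEMD4 than in WT and none was lower, where 7.11% of all retained genes were higher. Of the 121 lower genes 102, or 84.3%, were lower and Fabp6 alone was higher, where 5.04% of all were lower. The median log2 ratio of VEMD4 to WT was 2.35 for the higher and -1.97 for the lower genes, against 0.03 for all. Among higher genes that were not past 2-fold in VEMD4 were Ghrl, Sst, Erdr1 and Casp4, and among lower ones Tuba1a, Slc2a2, Slc5a1, Iigp1 and Zg16. Zg16, a goblet cell lectin, was at 1095 FPKM in VEMD2 and 532 FPKM in VEMD3, with 2250 in VEMD4, 83.7 in VEMD6, 107 in VEMD8 and 1659 in WT, so that its order differed between the pairs.

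**Figure D5:**
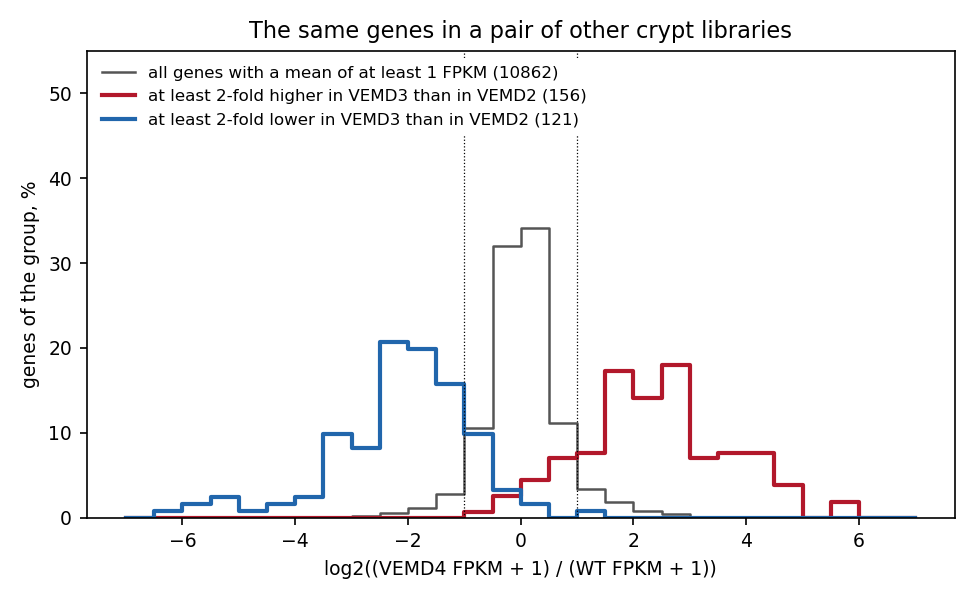
Distribution of the log2 ratio of VEMD4 to WT, each with 1 FPKM added and in steps of 0.5, for all 10862 retained genes (grey), the 156 genes higher in VEMD3 than in VEMD2 (red) and the 121 lower genes (blue), as a percentage of each group; dotted lines mark 2-fold. The medians are 0.03, 2.35 and -1.97.

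In VEMD8 against VEMD6, a further pair with no shared library though both count in the mean, the lower genes were divided more weakly. The higher genes went to both sides. Of the 156 higher genes 21, or 13.5%, were at least 2-fold higher in VEMD8 and 16, or 10.3%, were lower. Of all genes 1.45% were higher and 2.22% lower. The median log2 ratio of VEMD8 to VEMD6 was 0.25 for the higher genes, near the 0.18 of all genes, and -0.47 for the lower genes. Of the 121 lower genes 40, or 33.1%, were lower and 8, or 6.61%, were higher. Across all 6 libraries 90 of the 156 higher genes had their highest value in VEMD4 and 32 in VEMD3, and 85 had their lowest in WT and 39 in VEMD2. Of the 121 lower genes 53 were highest in WT, 38 in VEMD2 and 26 in VEMD6, and their lowest value fell in VEMD3 for 35, VEMD4 for 34, VEMD8 for 28 and VEMD6 for 24.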

How the data were processed

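RNA of crypts was sequenced on a BGI-500, per the labels' protocols. The authors deposited 1 table of FPKM for the 6 crypt libraries, with the unit per the file headers and values rounded to 2 decimals; the WT column is headed WT1. HISAT2, featureCounts and edgeR with the builds GRCm38 and mm10 are named, per the submitters' processing notes, without versions, and their settings are not given in the sources used here. Of 20718 lines 3760 hold no value. FPKM sums were 566585 in VEMD2 and 534251 in VEMD3, within the 481519 to 585501 of all 6.

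Ratios are log2((VEMD3 + 1)/(VEMD2 + 1)) for genes that averaged 1 FPKM or more, computed with pandas 2.3.3 and numpy 2.4.6, and figures with matplotlib 3.10.9. Adding 1 FPKM understates differences of low genes. Depth is unknown: among 1103 genes between 0.1 and 0.5 FPKM with unequal values the fullest bin of ratios held 6.53% and the next 5.98%, so no steps of whole reads could be read and no interval is given. Symbols, coordinates and promoter windows come from RefSeq GRCm38.p6 by gene identifier, for 10847 of 10862 genes.

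The comparison, the members and the 59 gene lists were chosen with earlier results of these data known. Some genes stand in more than 1 list. The rule for names takes Setdb1, the 20 highest and 20 lowest ratios among named genes averaging 5 FPKM or more, up to 6 members per list past 2-fold, up to 2 where none is, defining markers and near relatives. Not all are printed. Genes described for the segment of gut, for AP-1, for single values short of 2-fold and for position were chosen after their values were seen. Alternatives were other pseudocounts, filters, scalings and fold limits. The stem cell libraries and the repeat table were not analysed here.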

Additional observations from a re-analysis of the deposited data

How the results depend on the processing

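No paired analysis was possible because both groups hold 1 library, and for the same reason none could be left out. The 156 genes past 2-fold upwards and 121 downwards in VEMD3 were 267 and 185 with a pseudocount of 0.1 FPKM and 59 and 62 with one of 5 FPKM, 490 and 385 at a limit of 1.5-fold, and 21 and 12 at 4-fold. Without a filter they were 164 and 121, and above a mean of 5 FPKM 107 and 99. With libraries rescaled to the median gene they were 141 and 127, and to the same FPKM sum 227 and 120. This last rescaling differed from that of VEMD3 to the sum of VEMD2 used above, with median log2 ratios for DNA repair of 0.0756 and 0.0736. The split of 227 and 120 leaned towards higher genes, but the part of scale alone in it was not tested. The share of higher genes also higher in VEMD8 than in VEMD6, 13.5%, was 20.6% and 8.47% with the pseudocounts of 0.1 and 5 FPKM and 23.9% at 1.5-fold, and the share of lower genes also lower there, 33.1%, was 8.33% at 4-fold. The shares repeated in VEMD4 against WT stayed between 66.7% and 89.8% for higher and between 66.7% and 86.9% for lower genes. None of the 165 genes that the naming rule takes changed sign under the other pseudocounts or scalings, other genes in the text were not run, and 37 of the 104 past 2-fold were under it with the pseudocount of 5 FPKM. Depth is unknown, and low genes are the least certain.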

Other observations

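Nt5e and Slc28a2, genes of purine handling known from the tip of the villus, were picked after their values were seen, so their direction supports nothing about the tip as a whole. Nt5e, which forms adenosine outside the cell, was at 1.46 FPKM in VEMD2 and 9.34 FPKM in VEMD3, with 24.5 in VEMD4, 3.17 in VEMD6, 2.02 in VEMD8 and 2.49 in WT. Slc28a2, a nucleoside carrier with a near copy beside it, was at 7.88 FPKM in VEMD2 and 35.6 FPKM in VEMD3, with 148 in VEMD4, 40.3 in VEMD6, 18.6 in VEMD8 and 19.9 in WT. Both were lowest in VEMD2 and highest in VEMD4. Of 12 genes known from the tip, Ada, Nt5e and Slc28a2 among them, 9 lay above 0, with a median log2 ratio of 0.43. Only Ada, Nt5e and Slc28a2 were at least 2-fold higher and none was lower, and the highest of the rest was Junb at 0.89. Nt5e and Slc28a2, picked as said above, thus raise the counts and the median. This list too was drawn up after its values were seen. Creb3l3, Klf4 and Krt20 lay below 0, at -0.81, -0.29 and -0.29, and the others ran from 0.21 for Cdh1 to 2.24 for Ada.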
